A study of Mus musculus with 9 samples.

Results

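The insulin-like growth factor axis was followed through 10 genes in the retina of mice with oxygen-induced retinopathy (OIR), out of 54532 genes in the table of counts. The genes were chosen by name for their place in the axis, with earlier results of these data known. They were the ligands Igf1 and Igf2, the receptors Igf1r and Igf2r, and the binding proteins Igfbp2 to Igfbp7. All 10 passed the filter on low counts, which left 17540 genes. The retinas of 9 wild-type C57BL/6 mice were taken at P17 for bulk RNA-Seq, 3 per group. Control mice (1, 6, and 7) were kept in room air, and the labels also give DMSO for them. OIR mice (3, 5, and 6) went through the OIR model, in which hyperoxia obliterates retinal vessels in pups and the return to room air at P12 leaves the retina ischemic, and received the vehicle DMSO. Treated OIR mice (2, 5, and 10) went through the same model and received a single intraocular injection of 32-134D, a small molecule that inhibits HIF-1 and HIF-2, the transcription factors of the response to low oxygen, at P12. The dose is 70 ng in the labels of the mice and 70 ng/µl in the treatment protocol. No group carries a transgene or a deleted allele, and the comparisons cover a single age.

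IGF-1 and IGF-2 are small secreted proteins related to insulin. Both bind IGF1R, a receptor tyrosine kinase that signals through insulin receptor substrates to PI3K, Akt, and mTOR, whereas IGF2R has no kinase and carries IGF-2 to the lysosome. The binding proteins hold the ligands outside cells, and proteases such as PAPP-A and PAPP-A2 free the ligands by cutting some of the binding proteins. In the retina, IGF-1 is known as a factor that growing vessels need beside VEGF, and low circulating IGF-1 in preterm infants accompanies retinopathy of prematurity.

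Because the treatment acts on HIFs, the bases before the transcription starts of the members were searched for the core letters that HIFs can bind, ACGTG or GCGTG, on both strands. These cores also occur in sites of other factors, and ACGTG on both strands overlaps where the letters read CACGTG. RefSeq (GRCm38.p6) held 14 promoters for the 10 members, and 7 of them held either motif within the 250 bases before the start. Of all 32851 RefSeq promoters, 38.6% held either motif, 16.6% held ACGTG, and 28.2% held GCGTG. The promoters of the 4 members with an unadjusted p below 0.05 between treated OIR and control mice are printed here, from 5′ to 3′ on the strand of the gene, with each match in capitals (CACGC and CACGT are the matches on the other strand). The window of Igf1r is chr7:67952007-67952256 (+), that of Igfbp3 chr11:7213924-7214173 (-), that of Igfbp5 chr1:72874866-72875115 (-), and that of Igfbp7 chr5:77408046-77408295 (-). Distances count from the RefSeq start, which for Igf1r lies upstream of 67952827, where the gene begins in the table of counts.
Igf1r: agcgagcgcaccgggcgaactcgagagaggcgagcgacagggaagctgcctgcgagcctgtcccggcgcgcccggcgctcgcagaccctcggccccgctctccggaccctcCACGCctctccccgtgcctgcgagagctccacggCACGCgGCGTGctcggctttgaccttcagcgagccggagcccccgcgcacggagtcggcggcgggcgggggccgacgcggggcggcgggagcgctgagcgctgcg
Igfbp3: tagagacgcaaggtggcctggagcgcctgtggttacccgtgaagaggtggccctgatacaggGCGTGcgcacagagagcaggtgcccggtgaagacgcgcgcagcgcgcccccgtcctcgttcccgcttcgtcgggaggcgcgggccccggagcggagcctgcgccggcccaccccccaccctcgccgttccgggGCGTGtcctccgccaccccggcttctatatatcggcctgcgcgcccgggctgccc
Igfbp5: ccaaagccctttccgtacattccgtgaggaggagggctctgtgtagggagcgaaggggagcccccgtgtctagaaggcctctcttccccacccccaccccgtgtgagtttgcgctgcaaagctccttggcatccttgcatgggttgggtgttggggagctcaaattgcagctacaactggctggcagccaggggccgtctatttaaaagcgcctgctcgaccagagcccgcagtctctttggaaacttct
Igfbp7: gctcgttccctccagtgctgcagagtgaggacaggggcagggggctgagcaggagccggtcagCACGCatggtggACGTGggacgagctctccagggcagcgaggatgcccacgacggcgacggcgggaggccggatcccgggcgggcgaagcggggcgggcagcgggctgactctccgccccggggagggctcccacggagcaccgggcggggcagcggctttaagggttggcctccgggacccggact
Igf1r held 3 matches of GCGTG, which begin 139, 105, and 99 bases before the start. Igfbp3 held 2, at 188 and 55 bases, and Igfbp7 held GCGTG at 187 and ACGTG at 175 bases. No match was present in this window of Igfbp5. Of the members not printed, Igf2r held 4 matches of ACGTG and 2 of GCGTG, and a promoter of Igfbp2 held 2 of each. Neither of these genes had an unadjusted edgeR p below 0.05 in any comparison. Igf1 held 1 match of GCGTG and a promoter of Igf2 held 1 of ACGTG, while Igfbp4 and Igfbp6 held none. The GC content was 77.6% for Igf1r, 73.2% for Igfbp3, 58.8% for Igfbp5, and 74.0% for Igfbp7, against a median of 52.4% over all promoters, and its part in the number of matches was not tested.

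The libraries held between 16028731 and 27213184 counts. Müller glia markers (6 genes such as Rlbp1), of the glial cells that span the retina, summed to between 4121 and 6078 CPM (counts scaled to the size of each library with TMM factors) in every mouse, with none of them at 0. A pair of libraries stood apart. In treated OIR mouse 2, 9 lens genes summed to 109898 CPM, against at most 836 CPM in the other mice, and its 5 retinal ganglion cell markers were the lowest of all mice at 38.4 CPM. These markers were also below control mice (1042 to 1492 CPM) in all OIR mice (90.6 to 472 CPM) and in the other treated OIR mice (808 and 832 CPM). In control mouse 1, 6 fibroblast genes of choroid and sclera summed to 1016 CPM, against 38.9 to 238 CPM in the other mice. Results are given below with and without these libraries where this matters. In bulk retina, fewer cells of a type and less RNA per cell cannot be told apart.

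None of the 10 members passed the test in any of the 3 comparisons (edgeR, Benjamini-Hochberg adjusted p below 0.05 over all 17540 genes). In OIR against control mice 0.941% of all genes passed, in treated OIR against control mice 0.0228%, and in treated OIR against OIR mice 0%. At an unadjusted p below 0.05, 2 members stood higher in OIR than control mice (Igf1r and Igfbp5) where 23.8% of all genes passed in either direction. At the same threshold 4 members stood higher in treated OIR than control mice (Igf1r, Igfbp3, Igfbp5, and Igfbp7) beside 18.6% of all genes, and 1 was higher in treated OIR than OIR mice (Igfbp7) beside 4.69%. DESeq2 fitted to the 2 groups compared called 2 members in OIR against control mice (Igf1r and Igfbp5), beside 15.6% of all genes. It called none in the other comparisons, beside 2.21% and 0.431%. The median log2 fold change of the 10 members was 0.26 between OIR and control mice, with 8 above 0, while that of all genes was 0.03. For treated OIR against control mice the medians were 0.06 and 0.01, and between treated OIR and OIR mice -0.02 and 0.01, with 5 members above 0 in each.

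**Figure D1:**
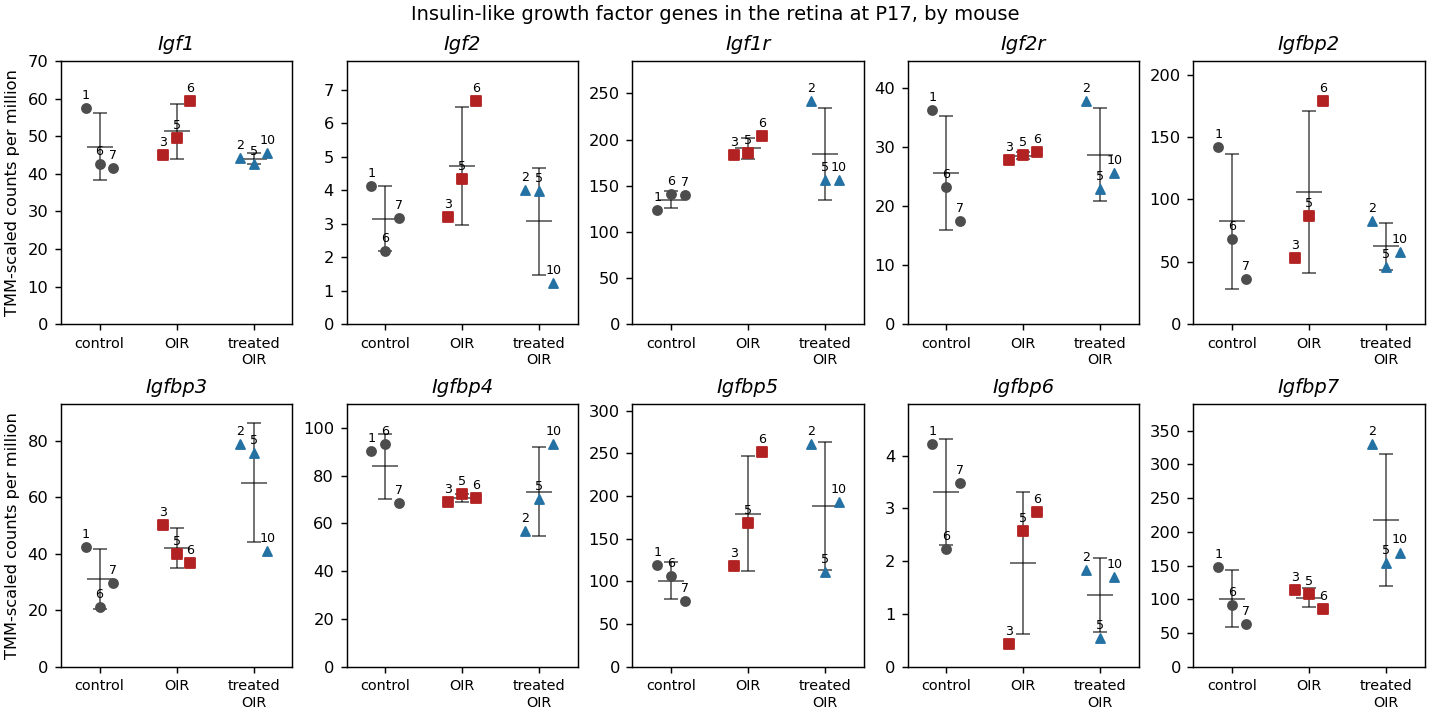
Level of each member (vertical axes, TMM-scaled CPM from 0) in each of the 9 mice, with control as circles, OIR as squares, and treated OIR as triangles, each numbered as in the labels; horizontal and vertical bars give the mean and SD of 3 mice. The 3 OIR mice sit above the 3 control mice for Igf1r, and the 3 treated OIR mice sit above all others for Igfbp7.

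Among the ligands, Igf1 was the more abundant, and no difference of either between groups passed the test. Igf1 was at 57.5, 42.8, and 41.5 CPM in control mice 1, 6, and 7, at 45.0, 49.6, and 59.3 CPM in OIR mice 3, 5, and 6, and at 44.2, 42.5, and 45.6 CPM in treated OIR mice 2, 5, and 10. The groups overlapped, and the treated OIR mice lay closest together. OIR mice differed from control mice in Igf1 by a log2 fold change of 0.12, with a 95% interval from -0.22 to 0.45, and between treated OIR and OIR mice it was -0.22, from -0.55 to 0.12. The 2 highest levels of Igf1 were those of OIR mouse 6 and control mouse 1, which also had the highest sums of 6 microglial markers (226 and 208 CPM, against 59.4 to 162 CPM in the other mice). The microglial sums were 71.6 to 75.4 CPM in treated OIR mice against 125 to 226 CPM in OIR mice, and 6 of 6 of these markers were lower (median log2 fold change -1.16, none called). The part of these cells in the levels of Igf1 was not tested.

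Igf2, an imprinted gene that is mostly silent after birth in many mouse tissues, was low, with 24 to 148 counts per mouse. It was at 4.12, 2.18, and 3.16 CPM in control mice, 3.21, 4.34, and 6.66 CPM in OIR mice, and 4.0, 3.99, and 1.23 CPM in treated OIR mice. The lowest and the highest value of Igf2 were both in diseased retinas, in treated OIR mouse 10 and OIR mouse 6. In Igf2 the log2 fold change between OIR and control mice was 0.58, with an interval from -0.48 to 1.65, which includes 0. Per kilobase of gene length, Igf1 made up 83.7% to 95.5% of the summed level of both ligands in each mouse.

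Of the receptors, Igf1r was higher in every OIR mouse than in every control mouse. Igf1r was at 124, 141, and 140 CPM in control mice, at 183, 185, and 204 CPM in OIR mice, and at 242, 156, and 156 CPM in treated OIR mice. Control and OIR mice did not overlap (all 3 higher in 15.9% of all genes, all 3 lower in 17.2%), nor did control and treated OIR mice (12.8% and 12.2%). Igf1r was the only member that did not overlap in the first comparison. The means were 135 ± 9.49 CPM in control and 191 ± 11.4 CPM in OIR mice (SD, n = 3 each). The log2 fold change of Igf1r was 0.50 (SE 0.17, edgeR adjusted p = 0.127) between OIR and control mice, or 1.42-fold. In the same comparison 5 of 6 Müller glia markers were higher (median log2 fold change 0.53, 1 called), as were 4 of 4 astrocyte markers (0.76, none called). Of the endothelial markers, 6 of 8 were higher (0.18, 1 called), while 5 of 5 ganglion cell markers were lower (-2.09, none called). The part of these cells in the levels of Igf1r, Igfbp5, or Foxo1 was not tested. For Igf1r the log2 fold change was 0.45 (SE 0.17, adjusted p = 0.220) between treated OIR and control mice, a comparison that shares the control mice. Treated OIR mice 5 and 10 were level with each other and below all OIR mice, whereas treated OIR mouse 2, the library with lens genes, had the highest Igf1r of all mice.

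The test of Igf1r moved with that library. Without treated OIR mouse 2, Igf1r was called between OIR and control mice (0.48, edgeR adjusted p = 0.0105) beside 12.5% of all genes, and the log2 fold change between treated OIR and control mice moved from 0.45 to 0.22. Against OIR mice it then moved from -0.05 to -0.26 (adjusted p = 0.311). Without control mouse 1 as well, the difference between OIR and control mice was 0.44 (adjusted p = 0.0251), beside 13.2% of all genes called. Over 19 alternatives the log2 fold change of Igf1r between OIR and control mice ranged from 0.44 to 0.57 and its adjusted p from 0.000444 to 0.313, with 5 below the threshold.

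Igf2r, the clearance receptor for IGF-2, was at 36.3, 23.3, and 17.5 CPM in control mice, at 27.9, 28.7, and 29.2 CPM in OIR mice, and at 37.8, 22.9, and 25.6 CPM in treated OIR mice. The OIR mice lay below control mouse 1 and above control mice 6 and 7. The highest values of the other groups were those of control mouse 1 and treated OIR mouse 2, the libraries that stood apart. For Igf2r the log2 fold change between OIR and control mice was 0.15, with an interval from -0.45 to 0.76. Without control mouse 1 it was 0.49 (edgeR adjusted p = 0.249). With treated OIR mouse 2 left out as well, it was 0.48 (adjusted p = 0.0791). Per length, Igf1r exceeded Igf2r by 1.89-fold in control mouse 1 and by 3.35-fold to 4.44-fold in the other mice.

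**Figure D2:**
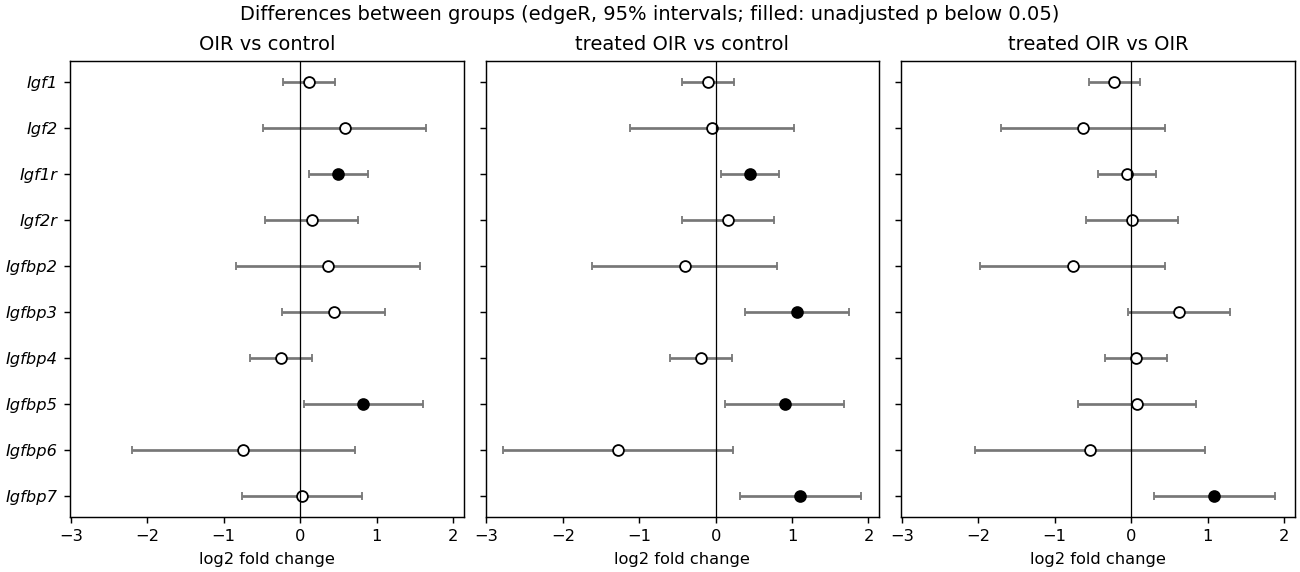
Log2 fold change of each member (horizontal axis) with its 95% interval in the 3 comparisons, from edgeR on all 9 mice; filled points have an unadjusted p below 0.05. The intervals of Igf1r and Igfbp5 lie above 0 in both comparisons with control mice, that of Igfbp3 in the comparison of treated OIR with control mice, and that of Igfbp7 in both comparisons of treated OIR mice.

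The binding proteins held the largest differences. Igfbp5, a binding protein that also attaches to extracellular matrix, was at 120, 106, and 76.7 CPM in control mice, at 118, 168, and 252 CPM in OIR mice, and at 261, 112, and 193 CPM in treated OIR mice. In OIR and treated OIR mice alike, a single animal lay within the range of the control mice. OIR mice stood 0.83 above control mice in Igfbp5 on the log2 scale (SE 0.35, edgeR adjusted p = 0.187), with a range of 0.51 to 1.06 over the alternatives and an adjusted p from 0.0107 to 0.487, below the threshold in DESeq2 on the 2 groups alone. This log2 fold change was 0.90 (SE 0.35, adjusted p = 0.223) between treated OIR and control mice and 0.07 (SE 0.34) between treated OIR and OIR mice. Treated OIR mouse 2 had the highest Igfbp5 of all mice. Without it, treated OIR mice stood 0.60 above control mice (edgeR unadjusted p = 0.0990, adjusted p = 0.429). With limma-voom on all mice the difference was 0.42.

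Igfbp3, the main carrier of IGF-1 in serum, was at 42.2, 21.0, and 29.8 CPM in control mice, at 50.1, 39.8, and 36.6 CPM in OIR mice, and at 78.9, 75.6, and 41.0 CPM in treated OIR mice. Treated OIR mice 2 and 5 were above all others, and treated OIR mouse 10 was below control mouse 1. Treated OIR mice exceeded control mice in Igfbp3 by a log2 fold change of 1.07 (SE 0.30, edgeR adjusted p = 0.153), or 2.10-fold. It ranged from 0.85 to 1.36 over the alternatives with an adjusted p from 0.0208 to 0.333, and was called by DESeq2 on all 9 mice, beside 4.8% of all genes, and by limma-voom, beside 5.28%. Against OIR mice the difference was 0.63, with an interval from -0.04 to 1.30, and between OIR and control mice it was 0.44, from -0.23 to 1.11.

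Igfbp7, which binds the ligands weakly and is made by blood vessels among other tissues, was the member with the largest difference between treated OIR and OIR mice when all mice were kept. Without treated OIR mouse 2, Igfbp2 (-0.999), Igf2 (-0.84), and Igfbp6 (-0.77) differed more than Igfbp7 (0.68), and none was called. Igfbp7 was at 147, 91.1, and 64.0 CPM in control mice, at 114, 108, and 86.1 CPM in OIR mice, and at 330, 153, and 169 CPM in treated OIR mice. Each treated OIR mouse was above every control and every OIR mouse, while control and OIR mice overlapped. Among all genes, all 3 treated OIR mice were higher than all OIR mice for 3.74% and lower for 5.39%. Against control mice the shares were 12.8% and 12.2%. Igfbp7 thus stood 1.09 higher on the log2 scale (SE 0.35, unadjusted p = 0.0128, edgeR adjusted p = 0.990) in treated OIR than OIR mice, or 2.12-fold. Against control mice the treated OIR mice stood 1.11 higher (SE 0.35, adjusted p = 0.178), and between OIR and control mice 0.02 (SE 0.35).

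The highest level of Igfbp7 was that of treated OIR mouse 2, and without it the excess over OIR mice was 0.68 (edgeR adjusted p = 0.355) and that from control mice 0.68 (adjusted p = 0.337). With control mouse 1 left out as well, the differences were 0.68 and 1.07 (adjusted p = 0.154 and 0.152). Over the alternatives the adjusted p of Igfbp7 ranged from 0.0775 to 1.0 between treated OIR and OIR mice and from 0.0337 to 0.372 between treated OIR and control mice. It was called in the latter by DESeq2 on all 9 mice, beside 4.8% of all genes, and by limma-voom, beside 5.28%. Endothelial markers (8 genes) summed to between 239 and 257 CPM in control mice, between 350 and 451 CPM in OIR mice, and between 290 and 435 CPM after treatment. Pericyte and smooth muscle markers (8 genes) summed to 206 to 305, 114 to 314, and 172 to 465 CPM, respectively. Gene by gene, 7 of 8 endothelial markers were higher in treated OIR than OIR mice (median log2 fold change 0.53) and 8 of 8 higher than in control mice (0.79). Of the pericyte and smooth muscle markers, 7 of 8 were higher than in OIR mice (0.51) and 6 of 8 than in control mice (0.35). No marker of either list was called in these comparisons of treated OIR mice. In both lists treated OIR mouse 2, with the highest Igfbp7, was the lowest of its group, and the part of these cells in the level of Igfbp7 was not tested. On the opposite strand, Polr2b shares 85 exonic bases with Igfbp7 (7.03% of it). Polr2b itself had log2 fold changes of 0.16, 0.07, and -0.09 in the 3 comparisons.

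Igfbp2, a binding protein of the developing nervous system, varied widely among mice of the same group. It was at 142, 68.5, and 36.4 CPM in control mice, at 52.9, 86.6, and 179 CPM in OIR mice, and at 83.0, 45.9, and 58.2 CPM in treated OIR mice. The highest values were those of OIR mouse 6 and control mouse 1. OIR mouse 6 also had the highest sum of 4 astrocyte markers (765 CPM, against 101 to 435 CPM in the other mice), and control mouse 1 the highest sum of fibroblast markers. The part of either was not tested. No difference of Igfbp2 between groups passed, and the interval between treated OIR and OIR mice ran from -1.98 to 0.44 on the log2 scale.

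Igfbp4, a substrate of PAPP-A, was at 90.4, 93.4, and 68.4 CPM in control mice, at 68.8, 72.2, and 70.5 CPM in OIR mice, and at 56.7, 70.2, and 93.2 CPM in treated OIR mice. The OIR mice lay within the range of the other groups. For Igfbp4 the log2 fold change between OIR and control mice was -0.25, with an interval from -0.66 to 0.15.

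Igfbp6, which prefers IGF-2 over IGF-1, was low, with 8 to 121 counts per mouse. It was at 4.23, 2.23, and 3.48 CPM in control mice, at 0.43, 2.56, and 2.92 CPM in OIR mice, and at 1.84, 0.55, and 1.70 CPM in treated OIR mice. Every treated OIR mouse was below every control mouse, as in 12.2% of all genes, while OIR mice overlapped both groups. For Igfbp6 the log2 fold change between treated OIR and control mice was -1.28 (SE 0.66, edgeR adjusted p = 0.332), with an interval from -2.78 to 0.22.

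**Figure D3:**
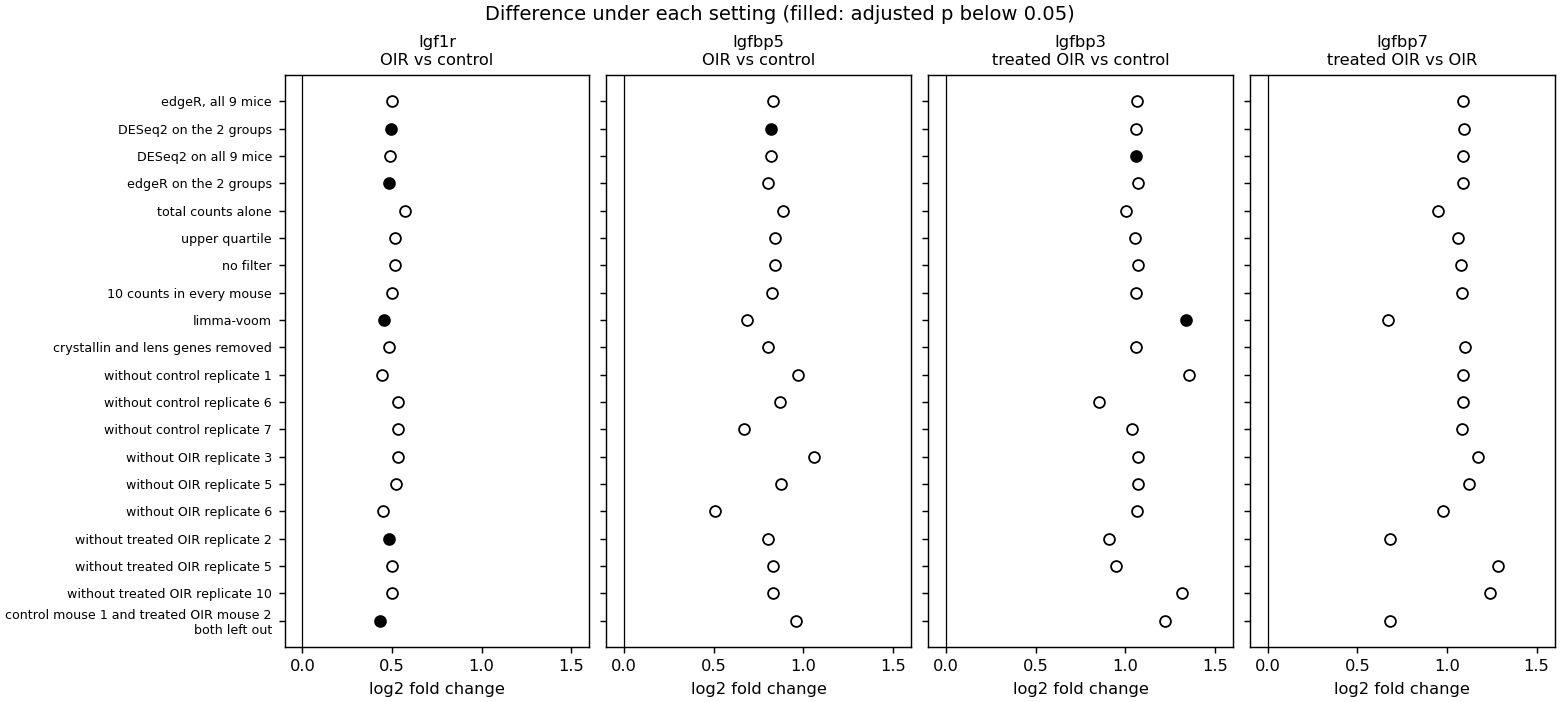
Log2 fold change (horizontal axes) of 4 members, each in the comparison named above its panel, for edgeR on all 9 mice and 19 alternatives (vertical axis); filled points have an adjusted p below 0.05. Igf1r is filled in 5 alternatives, Igfbp5 in 1, Igfbp3 in 2, and Igfbp7 between treated OIR and OIR mice in none.

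Set against each other per kilobase of gene length, the levels of the members stood in the order Igfbp7, Igfbp2, Igfbp5, Igfbp4, Igfbp3, Igf1r, Igf1, Igf2r, Igfbp6, and Igf2 when averaged over all mice. The order differed by group, with Igfbp4 (19) above Igfbp5 (16.8) and Igfbp6 (2.98) above Igf2r (2.76) in control mice, and Igfbp3 (20.8) above Igfbp4 (16.6) in treated OIR mice, in CPM per kilobase. Averaged over the 9 mice, Igfbp7 was at 116 ± 65.5 CPM per kilobase (SD), Igf1r at 10.1 ± 2.21, Igf1 at 4.80 ± 0.667, and Igf2 at 0.638 ± 0.265. Of the neighbours in this order, the ranges over mice did not overlap for Igf1r and Igf1 or for Igf1 and Igf2r, and overlapped for the other 7 pairs. Igfbp7 was above Igfbp2 in 8 of 9 mice, and Igf1r was above Igf1 in all 9.

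The sum of the 6 binding proteins and its makeup are described here without a test. Their summed level lay between 114 and 256 CPM per kilobase in control mice, between 174 and 240 in OIR mice, and between 211 and 401 after treatment. The ranges overlapped, and without treated OIR mouse 2 the sums after treatment, 211 and 239, lay within the range of the control mice. The top of that range was control mouse 1 at 256, the other library that stood apart. Control mice 6 and 7, at 160 and 114, were below all OIR and treated OIR mice. Igfbp7 made up 47.5%, 47.1%, and 46.6% of this sum in control mice, 54.0%, 45.6%, and 29.6% in OIR mice, and 68.1%, 60.2%, and 58.5% in treated OIR mice. The share was nearly the same in the 3 control mice although their sums differed, and every treated OIR mouse was above every other mouse. Igfbp2 made up between 17.4% and 30.0% in control mice, between 16.4% and 40.3% in OIR mice, and between 11.2% and 13.2% after treatment, so its share was lowest in the 3 treated OIR mice. Without treated OIR mouse 2, the mean share of Igfbp7 in treated OIR mice was 59.3%.

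**Figure D4:**
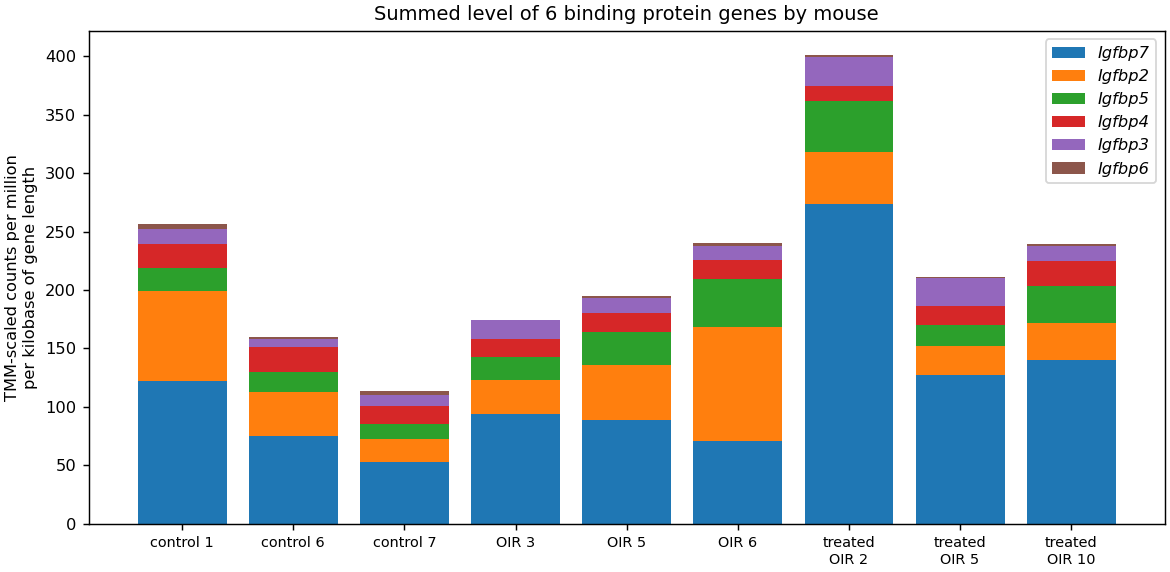
Summed level of the 6 binding protein genes (vertical axis, TMM-scaled CPM per kilobase of gene length, from 0) in each of the 9 mice, with the part of each gene stacked. Igfbp7 is the largest part in 8 of 9 mice, Igfbp2 the largest in OIR mouse 6, and the tallest bar is treated OIR mouse 2 at 401 CPM per kilobase.

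Beyond the members, 46 other genes of the pathway were counted (insulin-family receptors and ligands, further binding proteins, proteases and their inhibitors, receptor adaptors, kinases, growth hormone input, and RNAs tied to Igf2 and Igf2r). Of these, 43 were tested. Ins1, Ins2, and Irs4 were too low, with at most 16 counts in any mouse. Between OIR and control mice 1 of the 43 was called higher and none lower, beside 76 and 89 of all 17540 genes (0.941%). At an unadjusted p below 0.05 there were 10 higher and 3 lower, beside 1947 and 2226 of all genes (23.8% in either direction). For treated OIR against control mice none passed the adjusted threshold, and 7 were higher at an unadjusted p below 0.05, beside 18.6% of all genes in either direction. For treated OIR against OIR mice none passed, and 2 were higher at an unadjusted p below 0.05, beside 4.69%. The median log2 fold changes of the 43 were 0.13, 0.10, and -0.01 in the 3 comparisons. The comparisons share mice and are not independent of each other.

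The gene called was Foxo1, a transcription factor that Akt excludes from the nucleus when the receptor is active. Foxo1 was at 22.9, 22.2, and 23.1 CPM in control mice, at 33.7, 32.7, and 39.6 CPM in OIR mice, and at 33.6, 33.8, and 30.2 CPM in treated OIR mice. Both OIR groups lay above all control mice, as in 15.9% of all genes for OIR mice and 12.8% for treated OIR mice. The log2 fold change of Foxo1 between OIR and control mice was 0.64 (SE 0.11, edgeR adjusted p = 0.0456). It ranged from 0.55 to 0.70 over the alternatives, with an adjusted p from 0.000321 to 0.175, and the call was lost with total counts alone and when any mouse other than treated OIR mice 2 and 10 was left out. Treated OIR mice stood above control mice as well, and the difference in Foxo1 was 0.52 (SE 0.11, adjusted p = 0.108). Its relative Foxo3 stood at 0.38 (SE 0.10, adjusted p = 0.0796) between OIR and control mice and 0.39 (SE 0.10) between treated OIR and control mice.

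Among the regulators of the binding proteins, Stc2, a stanniocalcin that inhibits PAPP-A and PAPP-A2, was at 6.18, 6.79, and 6.96 CPM in control mice, at 22.3, 15.8, and 28.0 CPM in OIR mice, and at 76.0, 25.8, and 19 CPM in treated OIR mice. Both OIR groups were above all control mice (15.9% of all genes for OIR mice, 12.8% for treated OIR mice). Treated OIR mouse 2 was far above the rest. In Stc2 the log2 fold change was 1.73 (SE 0.48, edgeR adjusted p = 0.0888) between OIR and control mice, with an adjusted p from 1.41e-09 to 0.248 over the alternatives. For treated OIR against control mice it was 2.60 (SE 0.49, adjusted p = 0.102, from 5.96e-06 to 0.269 over the alternatives), and 1.76 without treated OIR mouse 2.

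Stc1, its paralogue, was at 6.64, 9.51, and 8.51 CPM in control mice, at 7.32, 5.03, and 5.44 CPM in OIR mice, and at 14.1, 10.5, and 11.8 CPM in treated OIR mice. All treated OIR mice were above all control mice, as in 12.8% of all genes, and above all OIR mice, as in 3.74%. The log2 fold change of Stc1 between treated OIR and OIR mice was 1.04 (SE 0.22, unadjusted p = 0.00121, edgeR adjusted p = 0.838). Over the alternatives the adjusted p ranged from 0.0178 to 1.0, and both DESeq2 fits called it, beside 0.431% of all genes on the 2 groups and 0.177% on all 9 mice.

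Pappa2, a protease that cuts Igfbp3 and Igfbp5, was at 7.79, 14.2, and 11.2 CPM in control mice, at 1.76, 1.40, and 0.63 CPM in OIR mice, and at 1.01, 1.66, and 14.5 CPM in treated OIR mice. Treated OIR mouse 10 was at the level of the control mice and the other treated OIR mice were at that of the OIR mice. The log2 fold change of Pappa2 between OIR and control mice was -3.13 (SE 0.93, edgeR adjusted p = 0.101, from 1.84e-12 to 0.280 over the alternatives). Treated OIR mice exceeded OIR mice by 2.19 (SE 0.91) and, without treated OIR mouse 10, by 0.09. Htra1, a further protease that can cut binding proteins, lay between 204 and 270 CPM in control mice, between 319 and 431 CPM in OIR mice, and between 223 and 392 CPM after treatment, with a log2 fold change of 0.67 (SE 0.22) between OIR and control mice.

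On the receptor side, Ghr, the growth hormone receptor that drives Igf1 in liver, was at 6.98, 5.60, and 4.51 CPM in control mice, at 8.50, 10.3, and 13.5 CPM in OIR mice, and at 8.44, 7.73, and 6.73 CPM in treated OIR mice. OIR mice were above all control mice, as in 15.9% of all genes, and above all treated OIR mice, as in 5.39%. The log2 fold change of Ghr between OIR and control mice was 0.91 (SE 0.24, edgeR adjusted p = 0.0823, from 0.0121 to 0.250 over the alternatives), and that of Jak2, the kinase attached to it, was 0.36 (SE 0.11). Gab1, an adaptor that recruits PI3K, stood at 0.70 (SE 0.17, adjusted p = 0.0670, from 0.000669 to 0.223). Grb14, an adaptor that inhibits the insulin receptor, lay between 7.75 and 11.3 CPM in control mice, between 2.74 and 4.54 CPM in OIR mice, and between 1.52 and 8.48 CPM after treatment, a log2 fold change of -1.34 (SE 0.51) between OIR and control mice. Insr, the insulin receptor, stood at 0.30 (SE 0.11) in the same comparison, and Pik3r1, a regulatory subunit of PI3K, at 0.26 (SE 0.10). Mtor stood at -0.22 (SE 0.08) and Igfbpl1, a binding protein-like gene with 12 to 54 counts per mouse, at 0.94 (SE 0.40).

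**Figure D5:**
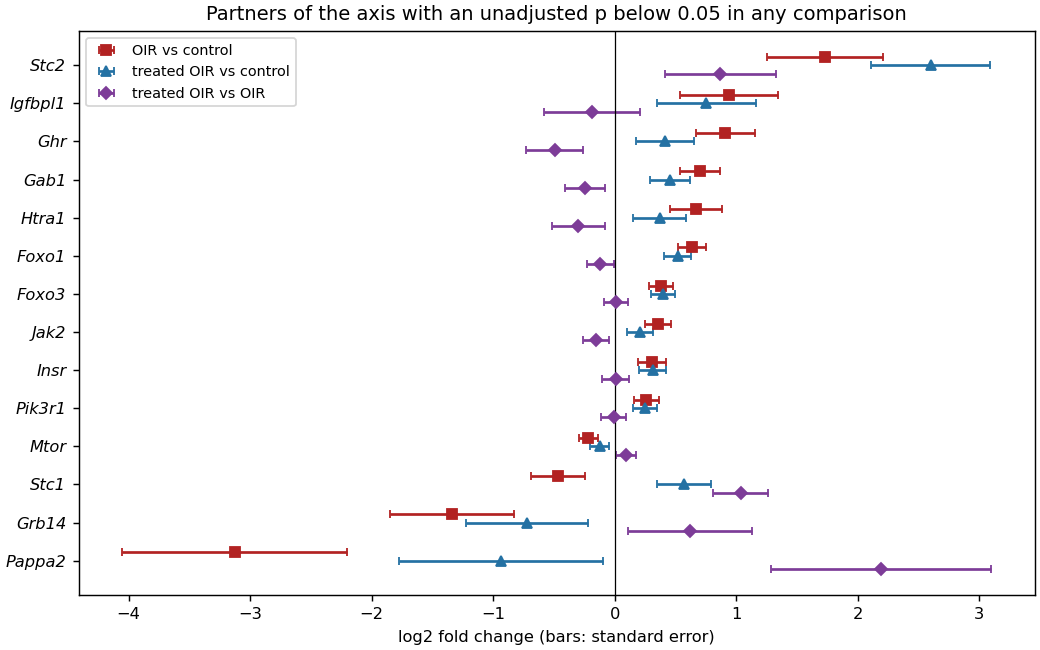
Log2 fold change (horizontal axis, bars give the SE) of the 14 other genes of the pathway with an unadjusted p below 0.05 in any comparison, with OIR against control as squares, treated OIR against control as triangles, and treated OIR against OIR as diamonds. Stc2 lies farthest to the right, at 1.73 and 2.60 against control mice, and Pappa2 farthest to the left, at -3.13 in OIR against control mice; only Foxo1 in OIR against control mice has an adjusted p below 0.05.

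The count of partners that passed moved with treated OIR mouse 2. Without that library 9 of the 43 were called between OIR and control mice (Foxo1, Foxo3, Gab1, Ghr, Grb14, Htra1, Igf2bp2, Pappa2, and Stc2), where 12.5% of all genes were called. DESeq2 on the 2 groups called 9 as well, where 15.6% of all genes were called.

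For the 3 members with the largest differences between OIR and control mice, the genes most alike in level over the 9 mice were listed as a description. The mice fall into 3 groups and share these libraries, so the likeness also holds differences between groups and in tissue. Each gene was picked for the highest r among all genes tested over only 9 mice, a choice that by itself favours high values. Ergic2 was closest to Igfbp5 (Pearson's r = 0.986, Spearman's coefficient = 0.967), followed by Tead2 (r = 0.966, Spearman's 0.867) and Irak1 (r = 0.965, Spearman's 0.950). Plbd2 was closest to Igfbp6 (r = 0.936, Spearman's 0.917), followed by Tsfm (r = 0.930, Spearman's 0.900) and Mfsd3 (r = 0.923, Spearman's 0.933). Bet1l was closest to Igf2 (r = 0.957, Spearman's 0.750), followed by Casp1 (r = 0.953, Spearman's 0.950) and Alox5 (r = 0.951, Spearman's 0.983).

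In the annotation at the deposited positions (GRCm38), Igf1 lies on chromosome 10 (87858265 to 87937042, + strand), Igf2 on chromosome 7 (142650766 to 142666816, - strand), Igf1r on chromosome 7 (67952827 to 68233668, + strand), and Igf2r on chromosome 17 (12682406 to 12769664, - strand). Igfbp2 (72824503 to 72852474, + strand) and Igfbp5 (72857932 to 72874884, - strand) are neighbours on chromosome 1. Their levels were highest among OIR mice in the same animal, OIR mouse 6, at 179 and 252 CPM. Igfbp3 (7206086 to 7213923, - strand) and Igfbp4 (99041244 to 99054392, + strand) lie on chromosome 11, Igfbp6 on chromosome 15 (102144362 to 102149511, + strand), and Igfbp7 on chromosome 5 (77349240 to 77408041, - strand). Igf2 shares 98 exonic bases (1.71% of it) with Igf2os on the opposite strand, and because the strand setting of the counting is not given in the sources used here, reads of such bases cannot be assigned to either gene.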

How the data were processed

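Retinal RNA of 9 mice was sequenced, and each mouse was taken as 1 replicate of its labelled group. The table the authors deposited holds unnormalized whole-number counts and a length for 54532 genes. The processing notes name CASAVA and HISAT. Versions, the counting tool, the annotation release, and the strand setting are not given in the sources used here. Coordinates are on GRCm38, where 98.3% of the identifiers also listed in GENCODE M21 lie at an identical place. Libraries held 16028731 to 27213184 counts. P-values of the edgeR fit rest on the spread among the 3 mice within each group, taken over all groups and shared in part across genes. Each comparison thus also depends on the spread in the group outside it.

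Counts were fitted with edgeR 4.0.16 in R 4.3.3 (quasi-likelihood test, TMM factors, default filter by group, 1 mean per group over all 9 mice). A call is a Benjamini-Hochberg adjusted p below 0.05 over 17540 genes. The study's text as read here gives no test for the sequencing. Log2 CPM used a prior count of 2. Intervals are 95%. Levels compared between genes were divided by gene length.

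The members and lists were chosen with earlier results of these data known. Named are all 10 members, pathway genes that were called or had an unadjusted p below 0.05 in any comparison, and the 3 genes with the highest Pearson's r to each of the 3 members with the largest differences between OIR and control mice. Alternatives were DESeq2 1.42.0 (2 groups or all 9 mice), edgeR on the 2 groups, total counts, upper quartile, no filter, 10 counts in every mouse, limma 3.58.1 (voom with sample quality weights), removal of genes whose symbol starts with Cry and of the lens list, and leaving out each mouse. Leaving out control mouse 1 and treated OIR mouse 2 together, and all alternatives for the other pathway genes, were chosen after seeing the data. Promoter and motif positions used RefSeq sequences (GRCm38.p6). Tables and figures used Python 3.11.15, pandas 2.3.3, and matplotlib 3.10.9.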

Additional observations from a re-analysis of the deposited data

How the results depend on the processing

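The number of members called was 0 in each comparison. Between OIR and control mice it was 2 with DESeq2 on the 2 groups, 1 with edgeR on the 2 groups, 1 with limma-voom, 1 with control mouse 1 and treated OIR mouse 2 both left out, and 0 to 1 when each mouse was left out (1 without treated OIR mouse 2). Between treated OIR and control mice it was 2 with DESeq2 on all 9 mice and 2 with limma-voom. Of the other pathway genes, 1 was called between OIR and control mice, against 9 (DESeq2 on the 2 groups), 7 (DESeq2 on all 9 mice), 6 (edgeR on the 2 groups), 0 (total counts), 3 (no filter), 8 (limma-voom), 9 (both libraries left out), and 0 to 9 when each mouse was left out (9 without treated OIR mouse 2, 2 without treated OIR mouse 10). Between treated OIR and control mice none was called, against 2 and 3 (DESeq2 on the 2 groups and on all 9 mice), 1 (no filter), and 3 (limma-voom), and between treated OIR and OIR mice none, against 1 with either DESeq2 fit. The share of all genes called moved too. Between OIR and control mice it was 0.941% with edgeR on all 9 mice and 15.6% with DESeq2 on the 2 groups. It was 12.5% without treated OIR mouse 2 and 13.2% with both libraries left out. Between treated OIR and control mice edgeR called 0.0228% and limma-voom 5.28%. DESeq2 called 2.21% on the 2 groups and 4.8% on all 9 mice there. Between treated OIR and OIR mice it called 0.431% and 0.177%. Shares under other settings are not given here. The causes were not tested.

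Signs turned for some differences that had not passed the test, Igfbp2 among them (0.36 between OIR and control mice, -0.41 between treated OIR and control mice). Between OIR and control mice Igfbp7 was at -0.0067 with edgeR on the 2 groups and -0.0067 with the lens genes removed. Leaving out each mouse gave -9.09e-05 to 0.28 for Igf1, -0.059 to 0.49 for Igf2r, -0.24 to 1.01 for Igfbp2, and -0.22 to 0.40 for Igfbp7. Between treated OIR and control mice, both libraries left out gave 0.083 for Igf1, 0.0024 for Igfbp2, and 0.032 for Igfbp4, and limma-voom gave 0.11 for Igf2. Leaving out each mouse gave -0.19 to 0.063 for Igf1, -0.28 to 0.34 for Igf2, -0.087 to 0.49 for Igf2r, and -0.76 to 0.24 for Igfbp2. Between treated OIR and OIR mice, Igf2r was at -0.11 (total counts), -0.015 (upper quartile), -0.23 (limma-voom), and -0.21 (both libraries left out), Igfbp4 at -0.015 (total counts), and Igfbp5 at -0.061 (total counts), -0.27 (limma-voom), and -0.21 (both left out). Leaving out each mouse gave -0.26 to 0.057 for Igf1r, -0.21 to 0.15 for Igf2r, -0.15 to 0.24 for Igfbp4, and -0.21 to 0.40 for Igfbp5. Over all fold changes under an alternative, 879 kept their sign and side of the threshold, 62 gained a call, 8 (all Foxo1) lost it, and 36 changed sign. Igfbp6 was not tested under the filter of 10 counts in every mouse.

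No paired analysis was possible because the groups compared share fewer than 2 replicate numbers, which name separate mice. Among the members, counts were lowest for Igf2 and Igfbp6, where counting error adds most to the spread.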
